A study of Mus musculus with 4 samples.

Results

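Gene expression in the liver of mice with intact Rps6 and a c-Myc transgene under the albumin promoter was compared with that of wild-type (WT) mice, gene by gene, as the log2 value on the array titled Myc minus that on the array titled WT. Of 18194 genes that a probe set names alone, 14046 had a log2 value of at least 6 on either array and were compared, and the other 4148 were below it on both. The 2 arrays belong to a series of 4 Affymetrix mouse GeneChips, with 1 array for each genotype. The others are ΔS6 (Rps6 lox/lox with Alb-Cre, titled DS6) and ΔS6:c-Myc. In ΔS6, Alb-Cre targets the gene of ribosomal protein S6 for deletion in hepatoblasts, and ΔS6:c-Myc carries both alterations. The paper found the deletion in ΔS6 livers incomplete and varying between mice. It found a larger share of deleted alleles in ΔS6:c-Myc livers. Each array received a pool of liver RNA, to which 3 mice contributed equally. The mice were 5 weeks old and not fasted, and the labels describe them as males. The mice were of a mixed hybrid background according to the methods. WT mice carried neither alteration, and the albumin promoter drives the transgene in hepatocytes after birth. Pooling leaves no measure of the spread between mice, so the differences below have no replicate check, and no test between genotypes was run.

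c-Myc is a transcription factor that binds DNA with its partner Max, most readily at the E-box, a short palindromic sequence, and it is best known for raising the genes of cell growth. These include the factors that make and modify ribosomal RNA, the subunits of RNA polymerase I, and enzymes of nucleotide and polyamine synthesis. In rodent liver, a second broad program sets apart the sexes: many cytochrome P450, sulfotransferase and organic anion transporter genes are read at a higher level in females or in males, under the pattern of growth hormone secretion. Both groups of genes appear among the differences described here.

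The transgene was visible on the array. Myc had a log2 value of 8.33 in WT, 8.89 in ΔS6, 11.68 in the Myc array and 11.37 in ΔS6:c-Myc, so both transgenic arrays lay far above both others. The log2 ratio of Myc over WT was 3.35, or 10.2-fold, the highest of all genes compared. Whether the single probe set of this gene detects transgene and endogenous mRNA alike is not given in the sources used here. Rps6, the gene targeted in ΔS6, is named alone by 2 dim probe sets that disagreed. The brighter on average, which stands for the gene in the counts, had 6.01 in WT, 7.48 in ΔS6, 5.65 in Myc and 8.25 in ΔS6:c-Myc, so it was higher on the arrays labelled as deleted. The other had 7.10, 6.30, 8.13 and 5.64. A further 9 probe sets are shared by Rps6 and the pseudogene Rps6-ps4, and all 9 were lower in ΔS6 than in WT and lower in ΔS6:c-Myc than in Myc, the brightest of them at 14.52, 14.35, 14.81 and 13.17. Hepatocyte identity matched the label on all 4 arrays. Albumin (Alb), transthyretin (Ttr), the apolipoprotein Apoa1, the protease inhibitor Serpina1c, the transcription factor Hnf4a and the urea cycle enzyme Cps1 had log2 values of 13.30 or more throughout, and the Myc and WT arrays differed by at most 0.10 (log2) for these 6 markers.

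The Myc and WT arrays were alike for most genes. The median log2 ratio was 0.01, with an SD across genes of 0.28, against an SD of 0.75 for ΔS6 over WT. At least 2-fold higher in Myc were 75 genes, which is 0.534% of those compared, and at least 2-fold lower were 61, or 0.434%. At 1.5-fold there were 281 higher (2.00%) and 169 lower (1.20%). The falls were larger than the increases: 22 of the lower genes and 8 of the higher ones differed at least 4-fold, and 11 and 1 differed at least 8-fold. Just inside 2-fold were A1cf (1.00), Cdca5 (1.01) and Tfap4 (1.02) among higher genes and Arntl (-1.02), Gstt3 (10.40 in WT and 9.40 in Myc) and Npr2 (10.32 and 9.32) among lower ones. Just outside lay Cep55 (0.99), Nox4 (1.00), Rpl14 (1.00), Cela3b (-0.99), Celsr1 (-0.99) and Cyp4a31 (10.82 in WT and 9.83 in Myc). Of the 136 genes, 47 have further probe sets with a log2 value of at least 6, and 70 of those 77 probe sets went in the same direction, 34 of them by 2-fold or more.

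Because the WT array enters every ratio, the 136 genes were divided by what the other arrays showed. WT stood alone, at least 2-fold below or above each of the other 3 arrays, for 43 of the higher and 27 of the lower genes. The Myc array differed at least 2-fold from both WT and ΔS6 for 10 higher and 23 lower genes. A further 2 higher and 3 lower genes met both rules, and 20 higher and 8 lower ones met neither. This division is a description of 4 values per gene and used no test.

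**Figure D1:**
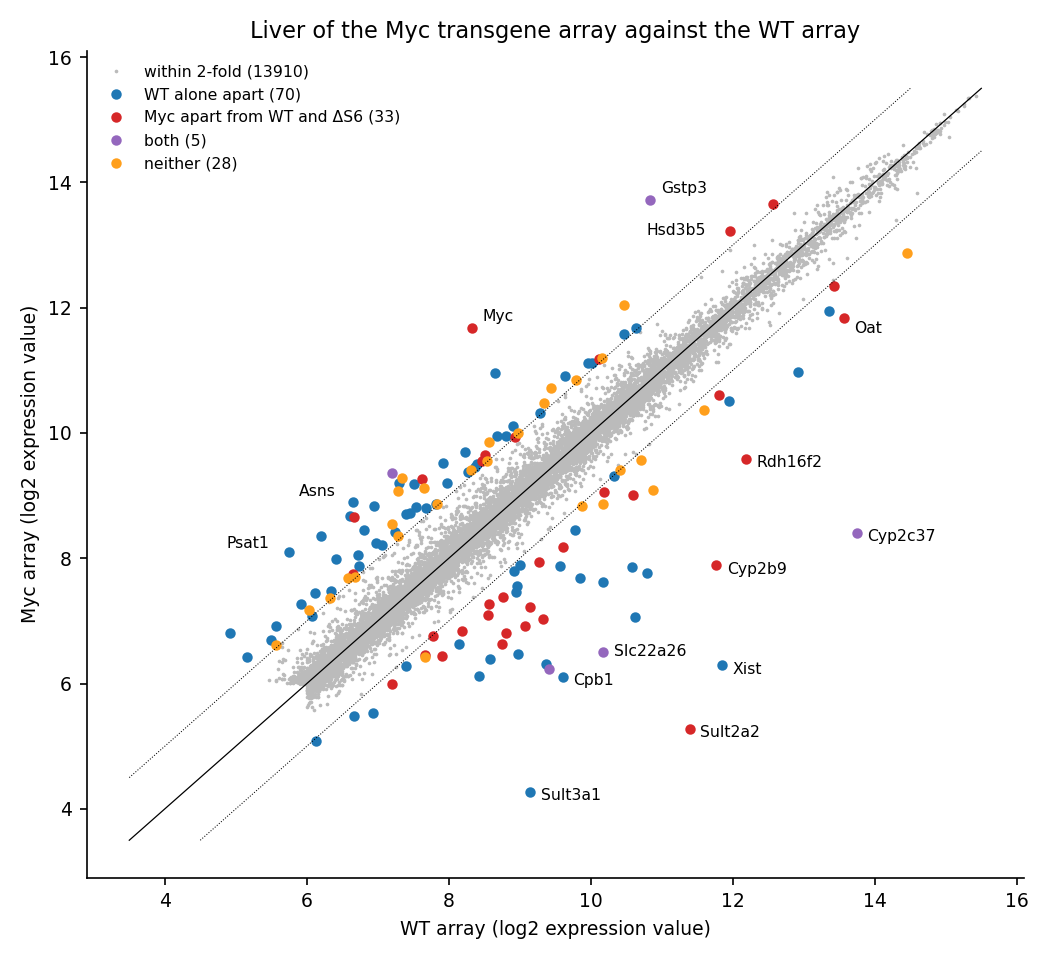
Log2 expression value of each of 14046 genes on the WT array (horizontal) and the Myc array (vertical), 1 array of pooled RNA each. The solid line marks equal values, the dotted lines 2-fold, and colours give the class of the genes past 2-fold. Myc lies far above the line at 8.33 and 11.68, and the points farthest below it include Sult2a2, Xist, Cyp2c37 and Sult3a1.

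Among the 10 genes for which the Myc array was higher than both WT and ΔS6, Myc itself was followed by the ileal and biliary bile acid transporter gene Slc10a2 at 6.67 in WT, 5.64 in ΔS6, 8.66 in Myc and 7.43 in ΔS6:c-Myc. Myom2, a myomesin of striated muscle, went from 7.62 in WT to 9.27 in Myc, against 6.28 in ΔS6 and 7.20 in ΔS6:c-Myc. Both had their highest value on the Myc array. Hsd3b5, a male-predominant steroid dehydrogenase, had values of 11.96, 5.30, 13.23 and 8.43 in the order WT, ΔS6, Myc and ΔS6:c-Myc. In the same order, Cyp7b1, an oxysterol hydroxylase of bile acid synthesis, had 12.57, 10.02, 13.65 and 12.21, and the glucuronosyltransferase Ugt2b38 had 10.11, 5.50, 11.18 and 7.02. All 3 belong to the male-biased liver genes described further on, and each was highest on the Myc array and lowest on ΔS6. A1cf, a cofactor of apolipoprotein B mRNA editing, was at 8.93, 8.55, 9.93 and 9.77, and so was above WT and ΔS6 on both transgenic arrays. The remaining genes were Adgrv1, a large adhesion receptor (1.14 over WT), Zbed5 (1.10) and the carboxylesterase Ces4a (1.10). For 7 of the 10 genes ΔS6 was itself at least 2-fold below WT, so that the distance from ΔS6 adds little to the distance from WT for these.

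The 23 genes for which the Myc array was lower than both WT and ΔS6 held larger differences. Sult2a2, a sulfotransferase of steroids and bile acids, had a log2 value of 11.39 in WT, 12.95 in ΔS6, 5.28 in Myc and 12.31 in ΔS6:c-Myc, a 69.2-fold difference between WT and Myc. Its value on the Myc array is below 6, so the size of the ratio is uncertain. Cyp2b9, a female-predominant P450, had 11.77, 9.89, 7.89 and 12.10 in the same order. Rdh16f2, of the retinol dehydrogenase family, had 12.19, 11.30, 9.59 and 10.50. For all 3 the Myc array was lowest, and for Sult2a2 and Cyp2b9 the second transgenic array was as high as WT or higher.

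Next in size were a further P450 and 3 transporter genes. Cyp2c55 had log2 values of 9.33 in WT, 9.49 in ΔS6, 7.03 in Myc and 10.12 in ΔS6:c-Myc. Slc22a27, an organic anion transporter family member, had 9.07, 9.69, 6.92 and 9.70, and Slc22a29 had 8.81, 9.68, 6.80 and 9.96. Nipal1, a magnesium transporter gene, had 8.75, 10.49, 6.64 and 9.32. These 4 genes again were lowest on the Myc array alone. Oat, the mitochondrial ornithine aminotransferase of pericentral hepatocytes, was one of the brightest genes in the class, at 13.57, 13.36, 11.83 and 13.87, which makes it 3.33-fold lower in Myc than in WT. Cyp17a1, a steroid hydroxylase and lyase, differed from these in having low values on both transgenic arrays, at 10.60, 10.94, 9.01 and 8.84.

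The other genes among the 15 lowest of the class, given as log2 ratios of Myc over WT, were the interferon-inducible Mndal (-1.91), the lipoprotein receptor Vldlr (-1.46), Cyp3a44 (-1.46), the stress-responsive Ndrg1 (-1.42), the Arf regulator Asap2 (-1.37) and the acyltransferase Acnat2 (-1.35). The remaining 8, named here to complete the class, were the ecto-nucleotidase Nt5e (-1.33), Cyp2b10 (-1.29), the muscle actin Acta1 (-1.22), 1810053B23Rik (-1.21), Nnmt, the nicotinamide methyltransferase (-1.20), Tm6sf2, a gene of lipoprotein lipidation (-1.12), the insulin-repressed binding protein Igfbp1 (-1.09) and the clock factor Arntl (-1.02). Other probe sets went the same way for Ndrg1 (-1.36, -1.19, -0.67 and -1.31) and Mndal (-1.80), while a second probe set of Arntl gave 0.06 and those of Nt5e gave -0.57 and 0.11. On 19 of these 23 genes ΔS6:c-Myc was at least 2-fold above Myc. The class was chosen for a low Myc value, which favours this count, and the share over all genes was not computed. Over all genes compared, the Myc array was at least 2-fold below all 3 other arrays for 21, of which 7 are on the list of female-biased liver genes, and at least 2-fold above all 3 for 7.

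**Figure D2:**
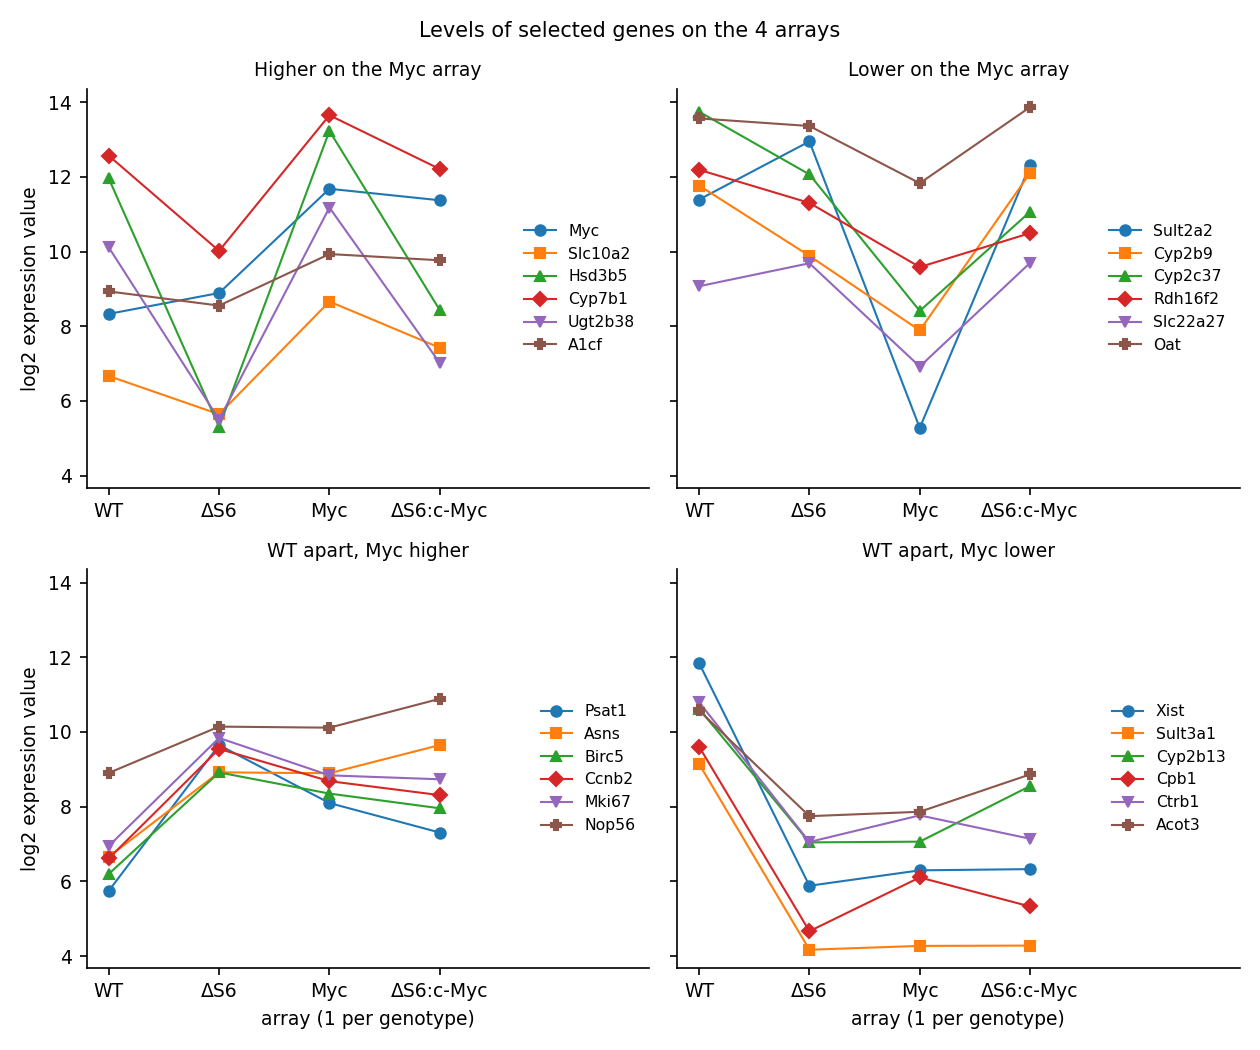
Log2 expression values on the 4 arrays (horizontal axis, 1 pooled array per genotype) for 6 genes in each of 4 patterns; lines join the values of 1 gene and have no meaning between arrays. Myc and A1cf are high on both transgenic arrays, Sult2a2 is low on the Myc array alone (5.28), and Xist is high on the WT array alone (11.84).

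The 5 genes that met both rules had a WT value apart from all others and a Myc value apart from ΔS6 too. Gstp3, a glutathione S-transferase of the pi class, had log2 values of 10.84 in WT, 12.19 in ΔS6, 13.73 in Myc and 12.93 in ΔS6:c-Myc, and was 7.40-fold higher in Myc than in WT. Kbtbd11, a kelch and BTB domain gene, had 7.20, 8.24, 9.36 and 8.66, but its other probe sets gave Myc over WT ratios of -0.36 and 0.76. Cyp2c37, a P450 of arachidonic acid metabolism, had 13.75, 12.07, 8.41 and 11.07, a 40.4-fold fall. Slc22a26, another organic anion transporter family member, had 10.18, 9.13, 6.50 and 7.54. The pancreatic gene Reg1 had 9.41, 7.85, 6.23 and 6.06. Closely related Cyp2c, Slc22a and Sult genes can share probe sequence, so a value may include signal from relatives.

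The genes with the WT array alone apart included Xist and many pancreatic enzymes. Xist, the RNA that coats the inactive X chromosome and is made in females, had a log2 value of 11.84 in WT against 5.88 in ΔS6, 6.29 in Myc and 6.33 in ΔS6:c-Myc, and its second probe set had 8.47 in WT and from 4.17 to 4.25 elsewhere. The Y-linked genes Eif2s3y (8.67 in WT and 9.11 in Myc), Kdm5d (7.70 and 8.07) and Uty (7.73 and 8.03) were present on both arrays and lower in WT, by 0.45, 0.37 and 0.31. The values of Xist go against the label of male mice for the WT array. All 9 measured genes of the sex chromosome list had a median ratio of -0.03, with 0 higher and 1 lower at 2-fold.

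Exocrine pancreas genes showed the same pattern. Of 36 genes on the list of pancreatic acinar cells, 26 are on the array and 23 passed the minimum level. Of these, 13 were at least 2-fold lower in Myc and 0 higher, against 0.434% and 0.534% of all genes. The median was -1.39, beside 0.01 over all genes. Cpb1, a carboxypeptidase, had 9.61 in WT, 4.66 in ΔS6, 6.10 in Myc and 5.33 in ΔS6:c-Myc. The lipase gene Cel had 9.37, 5.91, 6.31 and 6.06, and the chymotrypsinogen gene Ctrb1 had 10.80, 7.05, 7.77 and 7.14. The elastase Cela2a (-2.55), the carboxypeptidase Cpa1 (-2.50) and the ribonuclease Rnase1 (-2.30) were of the same kind. WT was the highest array for 21 of the 23 genes, and for 3506 of all 14046 genes compared (24.96%). A probe set shared by the pancreatic amylase genes (Amy2a1 to Amy2a5) had 11.49 in WT and 6.77 in Myc, and one shared by the trypsin genes Try4 and Try5 had 9.76 and 5.33. The log2 of the summed linear level of the list was 13.77 in WT and from 12.02 to 12.46 on the other arrays. In bulk RNA, fewer cells of a type and less RNA per cell cannot be told apart, and the part of tissue other than liver in the WT values was not tested.

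Female-biased liver genes were lower in Myc as a group. Of 36 on the list, 26 are on the array, and 24 passed the minimum level. Of these, 22 had a ratio below 0, beside 6844 of all 14046 genes, and the median log2 ratio was -1.38, beside 0.01. At least 2-fold lower in Myc than in WT were 13 and higher 0, against 0.434% and 0.534% of all genes. Besides Sult2a2, Cyp2b9, Slc22a26, Slc22a27, Slc22a29, Nipal1, Cyp17a1 and Cyp3a44, the lower ones were Sult3a1, Cyp2b13, Acot3, Hao2 and Fmo2. Sult3a1, a sulfotransferase, had 9.15 in WT and 4.17, 4.27 and 4.28 in ΔS6, Myc and ΔS6:c-Myc. Cyp2b13 had 10.62, 7.04, 7.06 and 8.55, and the acyl-CoA thioesterase Acot3 had 10.57, 7.74, 7.86 and 8.86. A probe set shared by Cyp3a41a and Cyp3a41b had 13.16 in WT, 12.50 in ΔS6, 9.10 in Myc and 13.58 in ΔS6:c-Myc.

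The female-biased genes did not all follow Xist across the 4 arrays. Xist was low on ΔS6 and ΔS6:c-Myc, as were Sult3a1, Cyp2b13 and Acot3. Sult2a2, Slc22a27 and Slc22a29, by contrast, were higher on both ΔS6 arrays than on WT and low only on the Myc array. On the whole list, 13 of 24 genes had their lowest value on the Myc array, against 18.6% of all genes. At least 2-fold lower in Myc than in ΔS6 were 13, against 7.95% of all genes, and 6 were at least 2-fold lower in ΔS6 than in WT, against 3.27%. Hao2, a hydroxyacid oxidase, lay between these patterns, at 10.88, 9.97, 9.09 and 11.09. The part of the sex makeup of the pools in these values was not tested.

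Male-biased liver genes moved less. Of 27 that passed the minimum level, Hsd3b5, Cyp7b1 and Ugt2b38 were at least 2-fold higher in Myc, and the fatty acid elongase Elovl3 was lower, at 11.95 in WT and 10.51 in Myc. The median log2 ratio was 0.17, beside 0.01 over all genes, with 19 of 27 above 0, beside 51.1% of all genes. Serpina4-ps1 (0.93), the complement gene C6 (0.72) and Mup10 (0.50) were next in size among those above 0, and Trim24 (-0.87) and Gna14 (-0.53) among those below it. In ΔS6 over WT the same list had a median of -1.92.

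Within families 1 to 4, the cytochrome P450 genes that passed 2-fold were lower in Myc. Of other families, Cyp7b1 was higher, while Cyp17a1 (-1.59) and Cyp26a1 (-1.33) were lower. Of 50 P450 genes of these families on the array, 44 passed the minimum level, with a median of -0.26, beside 0.01 over all genes. At least 2-fold lower in Myc were 10 and higher 0, against 0.434% and 0.534% of all genes. Of these 10, 3 are also on the female-biased list, and the Cyp2c subfamily added Cyp2c37, Cyp2c55, Cyp2c54, Cyp2c68 and Cyp2c50. Cyp2c68 was bright, at 14.46 in WT and 12.88 in Myc, and Cyp2c54 went from 12.92 to 10.98 and Cyp2c50 from 13.36 to 11.95. Cyp2g1 was at 8.94 and 7.47. The remaining P450 genes of these families were within 2-fold. They ranged from Cyp4a31 at 10.82 and 9.83 and Cyp2a12 at 14.29 and 13.40 to genes near equal or above WT. Cyp3a11, an abundant pregnane X receptor target, was at 14.99 and 14.96. Of all 44, 35 were below 0 and 9 above. At 1.5-fold, 14 were lower and 0 higher, against 1.20% and 2.00% of all genes.

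**Figure D3:**
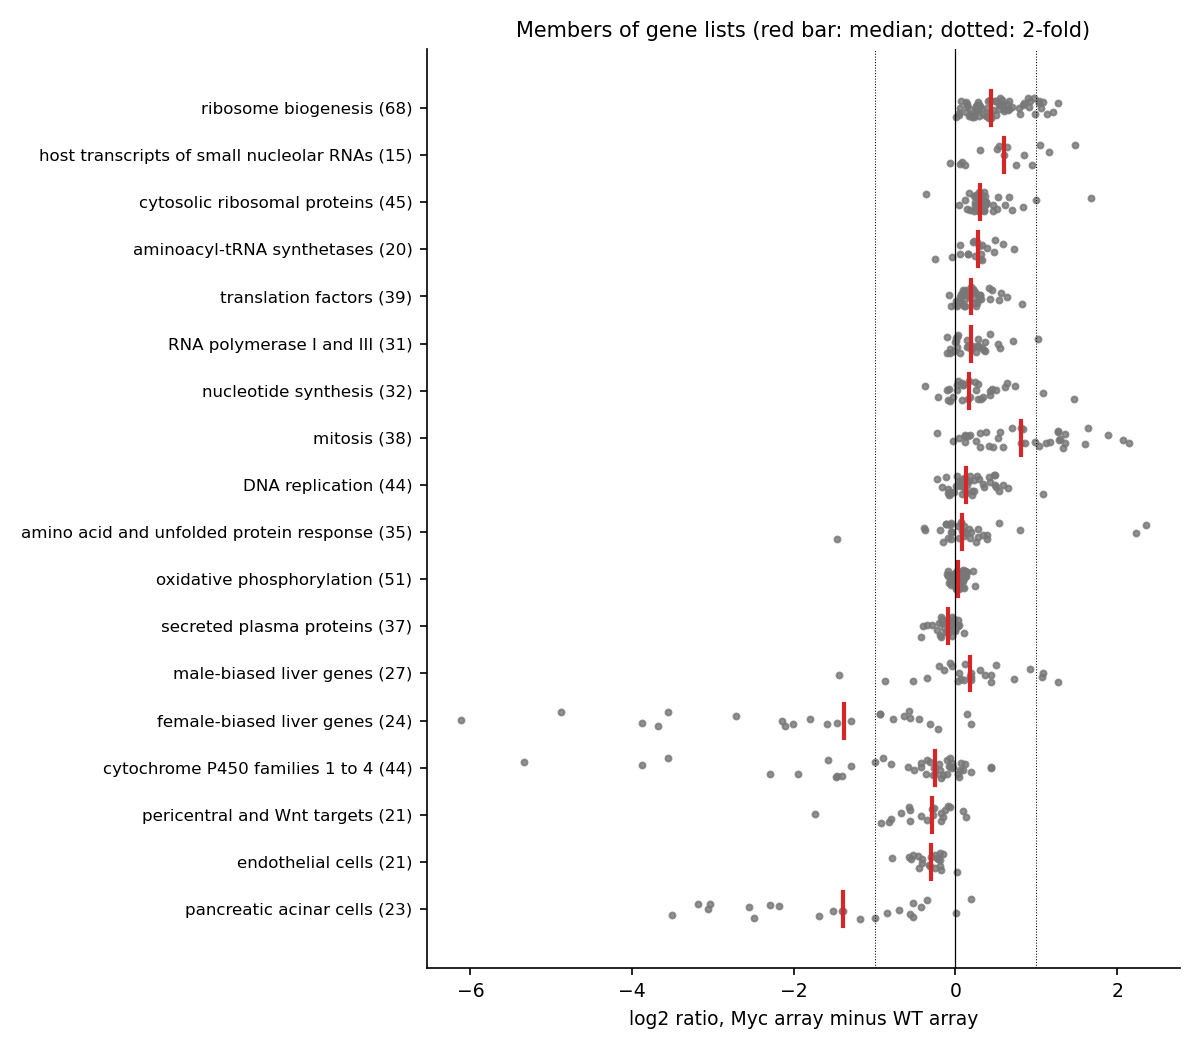
Log2 ratio of the Myc array over the WT array (horizontal) for the measured members of 18 gene lists, with the number of members in brackets; each point is 1 gene, red bars are medians, dotted lines mark 2-fold and points are jittered vertically. Ribosome biogenesis genes lie to the right of 0 with a median of 0.44, and female-biased and pancreatic genes spread to the left with medians of -1.38 and -1.39.

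The genes of ribosome biogenesis were higher in Myc than in WT as a group. All 68 measured members of the list had a log2 ratio above 0, against 51.1% of all genes, from 0.01 to 1.27 with a median of 0.44. The 2-fold threshold was passed by 7 genes and the 1.5-fold threshold by 24, all higher in Myc, against 0.534% and 2.00% of all genes. Nop58 and Nop56, core proteins of the box C/D particles that guide methylation of ribosomal RNA, had log2 values of 8.68 and 8.90 in WT, 10.62 and 10.14 in ΔS6, 9.95 and 10.11 in Myc and 10.87 and 10.89 in ΔS6:c-Myc. Dkc1 and Gar1, of the box H/ACA particles that guide pseudouridylation, had ratios of 1.05 and 1.03. The processing factors Rrp1b (1.13), Rrp12 (1.08) and Tsr1 (1.03) completed the 7. A second probe set of Nop56 gave 1.28 and one of Tsr1 1.13, while those of Rrp1b gave 0.55 and 0.26.

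WT was the lowest of the 4 arrays for 61 of the 68 ribosome biogenesis genes, against 25.1% of all genes. Dkc1 was at 9.80 in WT and 10.12 in ΔS6, and at 10.85 and 10.73 in Myc and ΔS6:c-Myc, so the transgenic arrays were the highest. Nle1, an assembly factor of the large subunit, was at 8.16 in WT, 8.50 in ΔS6 and 9.14 in Myc, and Nolc1, a nucleolar phosphoprotein, at 9.53, 9.84, 10.50 and 10.35 on the 4 arrays. Nop58 instead was higher in ΔS6 than in Myc. Myc exceeded ΔS6 for 41 of the 68 genes, and the same share over all genes was not computed. In ΔS6:c-Myc over ΔS6, a ratio that shares no array with Myc over WT, 67 of the 68 genes were above 0, beside 55.2% of all genes, and the median was 0.35, beside 0.04 over all genes.

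The E-box CACGTG, which reads the same on both strands, was looked for in RefSeq promoter sequences of GRCm38.p6 that run from 250 bases before to 50 bases after a gene's start. It was present in 11.1% of the 11274 measured genes with a promoter in that table, and in 8.09% of all 27025 genes there. Among ribosome biogenesis genes it was present in 15 of 57 (26.3%). The share was similar, 6 of 22 (27.3%), among those of them at least 1.5-fold higher in Myc. Among the genes at least 1.5-fold higher in Myc the E-box was in 38 of 233 (16.3%), and among those at least 1.5-fold lower in 9 of 125 (7.20%). At 2-fold the counts were 8 of 60 higher genes (13.3%) and 3 of 48 lower ones (6.25%). Some lists with small differences had shares as high as ribosome biogenesis. Examples are 8 of 29 translation factors (27.6%) and 5 of 17 circadian clock genes (29.4%). Among mitotic genes the E-box was in 2 of 29 (6.90%). By class it was in 5 of 14 higher genes that met neither rule, in 3 of 38 higher genes with WT alone apart, and in 0 of 7 higher genes with Myc apart from WT and ΔS6. A match says only that these letters are in the window, and binding by c-Myc was not measured on these arrays.

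The ribosome biogenesis genes that were at least 1.5-fold higher in Myc and hold an E-box with at least 12 bases on either side of it in the window are shown to let the surroundings of the motif be compared. Grwd1 also holds one, too near the end of the window to be shown. Capitals mark the E-box, and each sequence is given 5′ to 3′ on the strand of the gene. Their log2 ratios of Myc over WT were 0.91 for Nop2, 0.64 for Utp4, 1.03 for Tsr1, 0.98 for Nle1 and 0.78 for Wdr43. In Nop2 the motif starts 60 bases before the gene's start, and in the others it starts at base 16, 25, 24 and 18 after it, in that order.
Nop2, chr6:125131811-125131840, plus strand: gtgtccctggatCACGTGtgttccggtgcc
Utp4, chr8:106893643-106893672, plus strand: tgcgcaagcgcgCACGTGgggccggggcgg
Tsr1, chr11:74898092-74898121, plus strand: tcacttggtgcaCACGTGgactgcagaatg
Nle1, chr11:82908355-82908384, minus strand: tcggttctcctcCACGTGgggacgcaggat
Wdr43, chr17:71616220-71616249, plus strand: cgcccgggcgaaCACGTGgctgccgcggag

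Further genes of the machinery for making proteins were also higher in Myc, by medians above and below that of ribosome biogenesis. The 15 host transcripts of small nucleolar RNAs, a list made after their values were seen, had a median ratio of 0.60. Of them, 3 were at least 2-fold higher and 8 at least 1.5-fold higher, against 0.534% and 2.00% of all genes. Snhg4 was at 7.65 in WT and 9.13 in Myc, Zfas1 at 9.96 and 11.12 and Snhg1 at 10.63 and 11.68, and the other 4 probe sets of Snhg1 gave ratios from 1.07 to 1.15. Of 81 cytosolic ribosomal protein genes listed, 46 have a probe set that names them alone, and 45 passed the minimum level. Of these, 44 were above 0, beside 51.1% of all genes, with a median of 0.31. The exception was Rps6 by the probe set described above, while the other one named alone for Rps6 gave 1.03. Rpl12 was 2-fold higher, at 7.51 in WT and 9.18 in Myc. These levels are far below those of most genes on the list, such as Rplp0 at 13.76 and 14.22. The brighter probe sets of Rps19 and Rpsa gave ratios of 0.70 and 0.66, and ribosomal protein genes have many processed pseudogenes that can share probes. Of 31 genes of RNA polymerase I and III, the polymerase I subunit Polr1b was 2-fold higher, at 8.54 in WT, 8.73 in ΔS6, 9.56 in Myc and 8.98 in ΔS6:c-Myc, and Polr1a was 1.5-fold higher (0.72), with a list median of 0.20. Of 20 aminoacyl-tRNA synthetases and cofactors 0 were 2-fold higher, the median was 0.28, and Vars (0.72) and Aimp2 (0.59) were the largest. Of 39 translation factors 0 were 2-fold higher, with a median of 0.19 and Eef1e1 (0.82) the largest.

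Enzymes of nucleotide, polyamine and amino acid synthesis included single genes with large differences. Ctps, the CTP synthase, had log2 values of 8.23 in WT, 10.55 in ΔS6, 9.69 in Myc and 9.79 in ΔS6:c-Myc, and Rrm2, a subunit of ribonucleotide reductase, had 8.38, 10.24, 9.46 and 9.51. Both had WT alone apart, and the other 30 nucleotide synthesis genes were within 2-fold, with a list median of 0.17 and Cad (0.74), Atic (0.64) and Aprt (0.62) next in size. Srm, the spermidine synthase, was at 10.15 in WT and 10.28 in ΔS6 against 11.19 in Myc and 11.33 in ΔS6:c-Myc, so the transgenic arrays were above both others. The rate-limiting polyamine enzyme Odc1 had a ratio of 0.33. Psat1, of serine synthesis, had 5.74 in WT, 9.65 in ΔS6, 8.10 in Myc and 7.31 in ΔS6:c-Myc, and Asns, the asparagine synthetase, had 6.66, 8.92, 8.89 and 9.65. On the linear scale these were 5.10-fold and 4.71-fold higher in Myc, and the other probe sets gave log2 ratios of 1.21 for Psat1 and 2.97 for Asns. On the list of the amino acid and unfolded protein responses to which both belong, Vldlr was lower, the other 32 of 35 measured genes were within 2-fold and the median was 0.08, with Creld2 at 0.80 and Chac1 at 0.54 next in size.

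Mitotic genes were higher in Myc than in WT and higher still in ΔS6. Of 38 measured genes on the list, 15 were at least 2-fold higher, against 0.534% of all genes, and 22 at least 1.5-fold higher, against 2.00%. At these thresholds 0 were lower, and the median was 0.81, beside 0.01 over all genes. Birc5, which acts at the centromere and in cytokinesis, had 6.20 in WT, 8.92 in ΔS6, 8.35 in Myc and 7.96 in ΔS6:c-Myc. The cyclin Ccnb2 had 6.61, 9.55, 8.68 and 8.31, the proliferation marker Mki67 had 6.95, 9.84, 8.84 and 8.73, and Cdc20, an activator of the anaphase-promoting complex, had 7.92, 10.13, 9.52 and 9.65. For Cdc20, the other probe sets gave ratios of 2.62 and 0.04. Cdca3 (1.90), Cenpp (1.88) and Pbk (1.64), which also act in cell division, had WT alone apart as well. WT was the lowest array for 35 of the 38 genes, against 25.1% of all genes. ΔS6 was the highest for 34, for which the share over all genes was not computed. In ΔS6 over WT, 26 of the 38 were at least 2-fold higher, beside 1150 of all 14046 genes. In ΔS6:c-Myc over ΔS6, 4 of the 38 were above 0, beside 55.2% of all genes, and the median was -0.50, beside 0.04 over all genes. Many of these genes are dim in WT. The list median was 0.62 with no minimum level and 1.12 over members at log2 8 or more on Myc or WT. A member dim in WT passes that minimum through its Myc value alone, which favours large ratios.

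Genes that act before mitosis differed less. Of 44 measured DNA replication genes, Rrm2 was 2-fold higher, Uhrf1 (0.65) and Mcm6 (0.59) were 1.5-fold higher, and the median was 0.13. Among 33 cell cycle regulators, Gadd45g, a stress-inducible growth arrest gene, was at 9.34 in WT and 10.48 in Myc, while the cyclin Ccnd1 had a ratio of -0.90 and the inhibitor Cdkn1a one of 0.81, with values of 8.89 in WT, 12.57 in ΔS6, 9.70 in Myc and 13.50 in ΔS6:c-Myc. Of 32 p53 target genes, Psrc1 was 2-fold higher and 5 were 1.5-fold higher, against 0.534% and 2.00% of all genes. The median was 0.12. The partners and antagonists of Myc (15 genes with Myc itself) were within 1.5-fold apart from Myc, with Mnt at 0.47, Max at 0.30 and Mycl at -0.29.

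**Figure D4:**
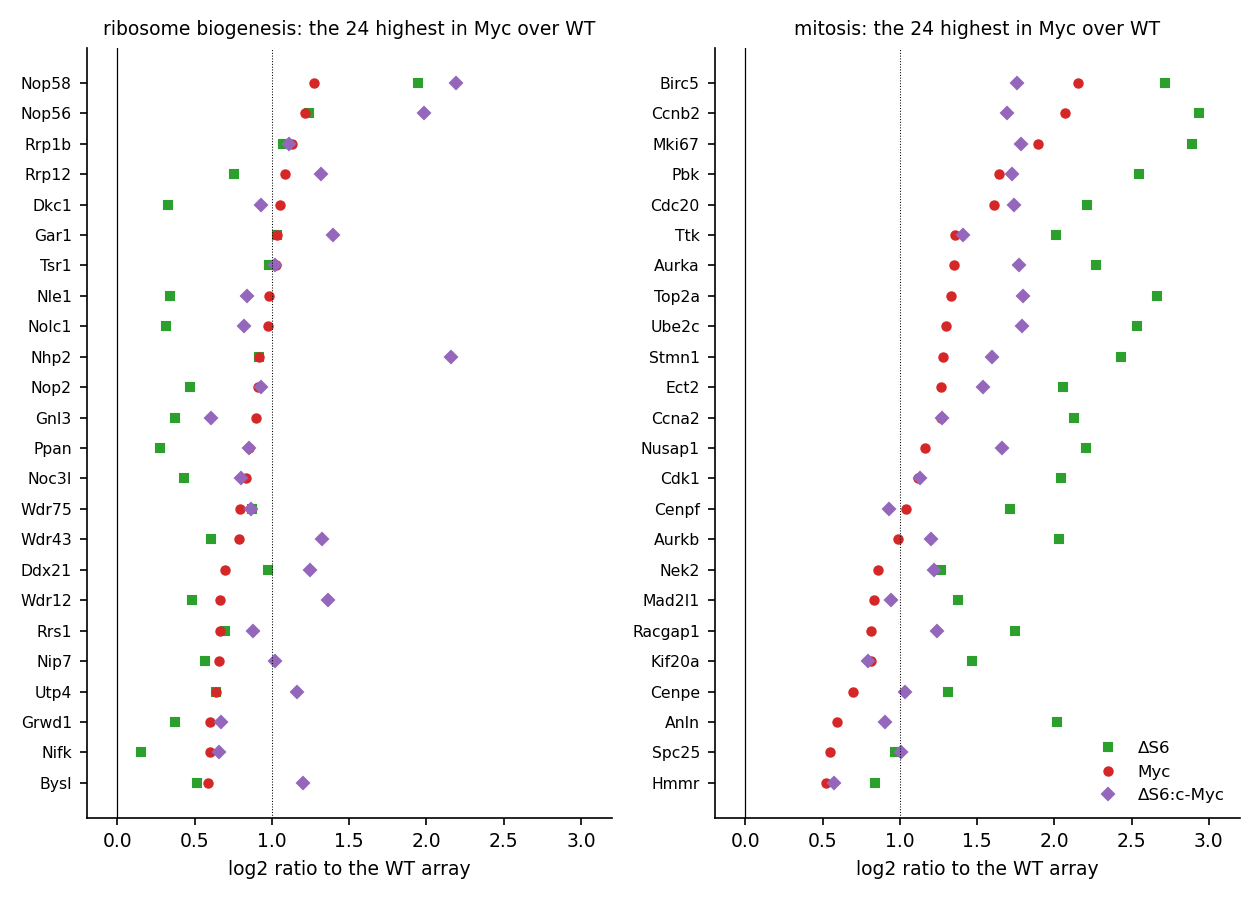
Log2 ratio to the WT array (horizontal) on the ΔS6, Myc and ΔS6:c-Myc arrays, for the 24 genes of ribosome biogenesis (left) and of mitosis (right) with the highest Myc over WT ratio; the dotted line marks 2-fold, and all 3 ratios share the WT array. ΔS6 (green squares) is the highest for the mitotic genes shown apart from Spc25, while for genes such as Dkc1, Nle1 and Nolc1 it is the lowest.

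For the 28 genes past 2-fold that met neither rule, at least 1 ΔS6 array lay within 2-fold of WT, and ΔS6 lay within 2-fold of Myc or beyond it. Among the 20 higher ones, Osbpl3, a lipid-binding protein gene, had 7.34 in WT, 10.56 in ΔS6, 9.29 in Myc and 7.90 in ΔS6:c-Myc, and the scavenger receptor gene Scara5 had 7.28, 9.83, 9.07 and 7.32. Pik3ap1, an adaptor of PI3-kinase signalling, had 10.47, 11.34, 12.05 and 11.86, but its second probe set gave a ratio of 0.28. Snhg4, described above, Cib3 (1.36) and Mtm1 (1.28, with further probe sets at 1.10 and -0.05) were next. Among the 8 lower genes were Hao2, Cyp2c68, Fmo2 (-1.30), Ccdc25 (-1.23), the organic anion transporter Slco1a4 (-1.22) and Lhpp (-1.14).

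Hepatocyte metabolism was otherwise close to equal. Of 51 oxidative phosphorylation genes 0 passed 1.5-fold in either direction, with a median of 0.03, and the same held for 20 glycolysis genes (0.02), 29 urea cycle and amino acid breakdown genes (-0.13) and 37 secreted plasma proteins (-0.09). Of 33 genes of fatty acid oxidation, Acot3 was 2-fold lower and 5 were 1.5-fold lower, against 0.434% and 1.20% of all genes. Of 29 genes of fatty acid and triglyceride synthesis, Elovl3 was 2-fold lower, the median was -0.21, and the lipid droplet gene Plin4 had 0.95, Pnpla3 -0.76 and Fasn -0.42. Of 29 bile acid genes, Cyp7b1 was higher and Slco1a4 lower, and Cyp7a1, the rate-limiting enzyme of bile acid synthesis, was at 12.65 in WT and 11.91 in Myc. Of 21 genes of pericentral hepatocytes and Wnt signalling, 19 were below 0, beside 6844 of all 14046 genes, with a median of -0.29. Oat was 2-fold lower, and Tbx3 (-0.93), the Wnt antagonist Notum (-0.82), Lect2 (-0.80) and the Wnt receptor Lgr5 (-0.57) followed. Glul, the glutamine synthetase of the same cells, had a ratio of -0.43.

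Beside the pancreatic genes, 8 lists of markers of other liver and blood cell types were measured, of which 7 had medians near 0. The medians were -0.12 for 24 macrophage and Kupffer cell genes, -0.12 for 11 neutrophil genes, -0.01 for 14 B and plasma cell genes, -0.02 for 12 T and NK cell genes, 0.06 for 36 stellate cell and matrix genes, 0.03 for 14 erythroid and megakaryocyte genes and 0.04 for 18 bile duct and progenitor genes. Within these 7 lists, 1 gene passed 2-fold, the trefoil factor Tff3, at 8.80 in WT, 13.50 in ΔS6, 9.95 in Myc and 10.40 in ΔS6:c-Myc. Endothelial genes were lower as a group, with 20 of 21 ratios below 0, beside 6844 of all 14046 genes. Their median was -0.30, and 0 passed 2-fold. The vein-associated Wnt2 had -0.79, Ehd3 -0.57 and the sinusoidal lectin Clec4g -0.55. On ΔS6 some of these lists stood apart from WT, with medians of 2.83 for neutrophil genes and 1.87 for macrophage genes. The stellate cell and matrix list and the bile duct and progenitor list also had medians more than 2-fold above WT. Medians of the endothelial, erythroid and megakaryocyte, B and plasma cell, and T and NK cell lists were within 1.5-fold of WT. The lists that stood apart bear on every rule that uses ΔS6. Of 38 interferon-stimulated genes, 0 passed 2-fold and 6 were 1.5-fold higher, against 2.00% of all genes. Usp18 (0.94) and Ifit1 (0.82) led them.

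The ratio of ΔS6:c-Myc over ΔS6 uses arrays that Myc over WT does not, but the transgene is not their only difference. Besides the larger share of deleted alleles, the paper found that livers with both alterations lacked regenerative nodules. List medians in this ratio were -2.55 for neutrophil, -2.44 for bile duct and progenitor and -1.40 for macrophage genes. Erythroid and megakaryocyte genes (0.10) and pancreatic genes (0.15) had medians above 0. What part the transgene itself has in this ratio was not tested. In this ratio, 0.926% of all genes were at least 2-fold higher and 4.67% at least 2-fold lower. Of the 75 genes higher in Myc over WT, 10 were 2-fold higher there, 12 were 2-fold lower, and 53 were within 2-fold, with a median of -0.06. Of the 61 lower genes, 6 were 2-fold higher, 8 were 2-fold lower and 47 were within 2-fold, with a median of 0.09. By class, 6 of the 10 higher genes with Myc apart from WT and ΔS6 were also 2-fold higher in ΔS6:c-Myc over ΔS6 (Myc, Slc10a2, Hsd3b5, Cyp7b1, Ugt2b38 and A1cf), although a low ΔS6 value helps a gene into both. Across the 14046 genes, Pearson's r between the 2 ratios was 0.09 and Spearman's rho 0.16, as a description over genes, which are not independent.

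**Figure D5:**
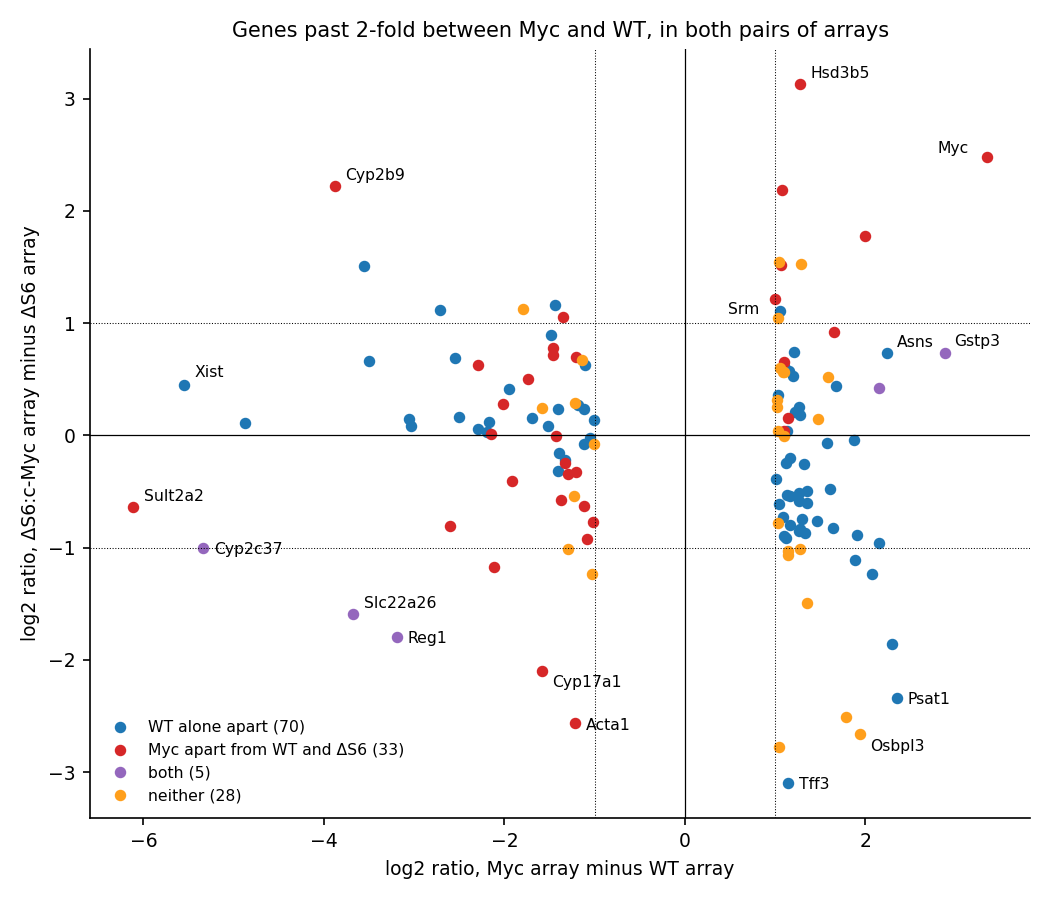
Log2 ratio of Myc over WT (horizontal) and of ΔS6:c-Myc over ΔS6 (vertical) for the 136 genes past 2-fold in the first; each point is 1 gene, coloured by class, and dotted lines mark 2-fold. Myc is the point farthest to the right (3.35 and 2.48), and genes such as Tff3, Psat1 and Cyp2b9 lie in the quadrants of opposite sign.

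Genes that set both transgenic arrays apart from both others were few, in a comparison added after the data were seen. The lower of Myc and ΔS6:c-Myc was at least 1.5-fold above the higher of WT and ΔS6 for 11 genes (0.0783% of those compared). After Myc, with a gap of 2.48, came Nox4, an NADPH oxidase (1.00), AI506816 (0.99), Srm (0.91), A1cf (0.83), Slc10a2 (0.76), Gstp3 (0.74), Dpy19l3 (0.65), Tbc1d30 (0.60), Btbd19 (0.60) and Dkc1 (0.60). Nox4 was at 6.79 in WT, 5.53 in ΔS6, 7.79 in Myc and 8.01 in ΔS6:c-Myc. Below both others by as much were 19 genes (0.135%), led by Reg1 (1.62), Slc22a26 (1.59), Cyp17a1 (1.59), Cyp2c37 (1.00) and Dnaic1 (0.95). Of Slc22a26, a second probe set had 9.45 in WT, 8.13 in ΔS6, 5.14 in Myc and 5.34 in ΔS6:c-Myc.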

How the data were processed

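Livers of 4 genotypes were measured on 4 Affymetrix mouse GeneChips, each with RNA combined from 3 mice. The authors made the deposited log2 expression values by RMA with quantile normalization. The submitters' notes name RMA and affy, without version numbers in what was read here. Ranked by size, the values of the Myc and WT arrays differ by at most 0.07. Of 45101 probe sets, 34958 have 1 gene symbol in the platform annotation, 932 have several and 9211 have none. A gene was represented by whichever of its probe sets had the largest average across all arrays, and genes with log2 6 or more on Myc or WT were compared. Groups came from the sample labels. Genes were counted at 2-fold and 1.5-fold, and 51 gene lists were described by counts and medians.

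The members, lists and rules were chosen with earlier results of these data known. Named genes are Myc, the 15 highest and 15 lowest with Myc apart, the 10 and 10 with WT alone apart, the 6 and 6 meeting both rules or neither, up to 5 members of a list by size or those whose level is described, and the 3 genes on either side of 2-fold. The other 8 lower genes with Myc apart, Cyp26a1, the probe sets of Rps6 and the lists of small nucleolar RNA hosts and of genes apart on both transgenic arrays were added after the data were seen. With 1 array per genotype no p-value was computed, the number of arrays limits precision, and detection calls were not used here. The counting was tested on simulated data. Tables were handled in Python 3.11.15 with pandas 2.3.3 and numpy 2.4.6, loess came from statsmodels 0.14.6, correlations from scipy 1.17.1 and figures from matplotlib 3.10.9. Alternatives were 3 scalings, 3 levels of the filter, 2 probe set choices and 2 thresholds.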

Additional observations from a re-analysis of the deposited data

Results flagged for a closer look

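Some genes past 2-fold in Myc over WT were past 2-fold in the opposite direction in ΔS6:c-Myc over ΔS6. There were 18 of them, and the difference between the 2 ratios was not tested, since each ratio rests on 2 arrays. Higher in Myc over WT and lower in the second pair were 12 genes. Their log2 ratios in ΔS6:c-Myc over ΔS6 were -3.10 for Tff3, -2.78 for the ubiquitin-like Ubd, -2.66 for Osbpl3, -2.51 for Scara5, -2.34 for Psat1, -1.86 for D17H6S56E-5, -1.50 for Cib3, -1.24 for Ccnb2, -1.11 for Mki67, -1.07 for the phosphatase Cdkn3, -1.03 for Gadd45g and -1.01 for the organic anion transporter Slc22a7. Each of these 12 genes had a higher value on ΔS6 than on WT. The 6 genes lower in Myc over WT were higher in the second pair, by 2.22 for Cyp2b9, 1.51 for Cyp2b13, 1.16 for Elovl3, 1.13 for Hao2, 1.12 for Acot3 and 1.05 for Acnat2. As many genes, 18, were past 2-fold in the same direction in both pairs.

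Probe sets with several gene symbols entered none of the counts above, and 10 of them were past 2-fold, 7 lower and 3 higher in Myc than in WT. The lower ones had log2 ratios of -4.72 (amylases), -4.67 (Cela3a and Cela3b), -4.43 (Try4 and Try5), -4.06 (Cyp3a41a and Cyp3a41b), -2.04 (Slc22a29 and Slc22a30), -1.38 (Mndal and 3 relatives) and -1.32 (Ifi205 and Ifi211). The one annotated to Mir92-1 and Mir17hg, the host transcript of the miR-17 cluster, was at 7.96 in WT, 8.58 in ΔS6, 9.13 in Myc and 8.97 in ΔS6:c-Myc, a log2 ratio of 1.17, and it does not measure mature miRNAs. One shared by Ifi202b and LOC100044068 had a ratio of 1.42, with 5.39 in WT and 6.81 in Myc. One shared by a cluster of histone H2A genes, H2ac4 among them, had a ratio of 1.08, with 9.51 in WT and 10.59 in Myc.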

How the results depend on the processing

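The ratio of Myc kept its direction under all 3 scalings and moved by less than 0.14 (log2), the SD between probe sets of 1 gene with a mean of 8 or more, which served as the tolerance because no replicate exists. Under the scalings, filters and probe set choices, the 6 counts of genes higher, lower, with WT alone apart or with Myc apart from WT and ΔS6 stayed within 1.5 times the values given. The threshold itself moved them. At 1.5-fold there were 281 higher and 169 lower genes, 158 and 58 of them with WT alone apart and 55 and 82 with Myc apart. At 4-fold these were 8 and 22, then 1 and 11, and 1 and 7. Averaging all probe sets of a gene kept 108 of the 136 genes in the same direction past 2-fold, and a minimum of log2 8 kept 111. Of 416 list medians recomputed, 405 moved by less than the tolerance. The exceptions were 4 values for mitosis (0.58 to 1.12), 3 for pancreatic genes (-2.19 to -1.08), 3 for female-biased genes (-1.11 to -0.93) and 1 for neutrophils (0.07). The filters read the higher of Myc and WT, so a gene dim on 1 of these arrays can pass through the other, which favours large ratios. None of the genes past 2-fold changed sign under the scalings or probe set choices run. With 1 array per genotype there is no replicate to leave out. No paired analysis was possible because each genotype has 1 array. For 7 higher and 6 lower genes the dimmer array was under log2 6, which leaves the size of their ratios uncertain, and signal over background was not analysed here.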
